A study of Caenorhabditis elegans with 2 samples.

Results

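The genes described here are the 4 RNA-dependent RNA polymerase genes of Caenorhabditis elegans, ego-1, rrf-1, rrf-2 and rrf-3, out of 19973 protein-coding genes on the nuclear chromosomes. They were chosen by symbol and from measured values, namely the high signal and rank of the region at ego-1, so their values are given as a description with no test. The data are chromatin immunoprecipitation sequencing (ChIP-seq) peak lists from whole animals of strain OP658, with the genotype unc-119(tm4063) III; wgIs658. The transgene expresses F10E7.11 fused at its C-terminus to GFP and FLAG, and the immunoprecipitation used an antibody against GFP, per the labels. Animals were young adults of mixed sex, 63 hours after synchronisation as starved L1 larvae. There was 1 group with 2 biological replicates and no second strain or condition. The lists hold no expression values, so the labelled source could not be checked against markers. Chromatin came from whole animals, so strong binding in few cells and weak binding in many cannot be told apart.

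RNA-dependent RNA polymerases copy a target RNA into small interfering RNAs, which Argonaute proteins use to silence or license matching transcripts. EGO-1 is needed for germ line development and for RNA interference in the germ line, and makes secondary small RNAs used by the Argonaute CSR-1 among others. RRF-1 makes secondary small RNAs in the soma and shares part of the work of EGO-1 in the germ line. RRF-3 acts with Dicer in the ERI complex to make primary endogenous small RNAs, and its loss makes animals more sensitive to RNA interference. No comparably clear role is established for RRF-2.

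The genes lie in assembly ce11 at 7650341 to 7656338 (ego-1), 7643431 to 7649777 (rrf-1) and 12098664 to 12106112 (rrf-2) on chromosome I, all on the minus strand. The gene rrf-3 lies on the plus strand of chromosome II, from 8162465 to 8168651. The 5′ end of rrf-1 is 563 bp downstream of the 3′ end of ego-1. Translated from the annotation, the proteins have 1632 residues for ego-1, 1601 for rrf-1, 1579 for rrf-2 and 1765 for rrf-3. In pairwise alignments rrf-1 and rrf-2 were the most alike, with 68.4% identity over 1569 aligned residues. Identity was 60.8% between ego-1 and rrf-1, 57.1% between ego-1 and rrf-2, and 31.7% to 34.1% between rrf-3 and each of the others.

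A region was assigned to a gene where its summit lay in the gene or up to 1000 bp upstream of its 5′ end. The authors' lists held 18286 candidate regions for the pooled replicates, 18116 for replicate 1 and 25275 for replicate 2. A shorter list held 575 peaks past a threshold on the irreproducible discovery rate (IDR), a measure of how consistently a region ranks in the replicates. Signal values were given by the authors' peak caller and differ in scale between lists, so they are read here by rank within a list or against the list's median. The medians were 71.9 for the pooled list, 52.9 for replicate 1 and 23.7 for replicate 2. Most candidates are weak, and 996 of the pooled regions had a q-value under 0.05. Read depth is unknown from these lists.

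Of the 4 genes, ego-1 alone had an IDR summit, against 2.4% of all protein-coding genes. It was also the only member with a summit among the 575 strongest regions of replicate 1 (2.45% of all genes) and of replicate 2 (2.51%), and with a pooled summit at a q-value under 0.05 (4.15%). Since the rule used these values, nothing is read from the count. A pooled candidate summit was present at 4 of 4 genes, where 45.9% of all genes had one. A replicate 1 summit was present at 3 of 4 genes (45.8% of all genes) and a replicate 2 summit at 4 of 4 (57.1%). The members are long genes: their median window was 7267 bp, against 3027 bp for all protein-coding genes. Among the 680 genes with windows as long as those of the members, 3.68% had an IDR summit and 68.5% a pooled candidate summit. Having a candidate region is thus common for genes of this length.

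The strongest region at ego-1 lay upstream of the gene, on chromosome I from 7656609 to 7656815, in intergenic sequence. Its signal value was 382 in the pooled list, 238 in replicate 1 and 148 in replicate 2. It ranked 19 of 18286 in the pooled list, 34 of 18116 in replicate 1 and 6 of 25275 in replicate 2, so it stood near the top of each list. Over the median signal of the list, these values were 5.32 times as high in the pooled list, 4.5 times in replicate 1 and 6.25 times in replicate 2. Its q-value was 0.00183, 0.00188 and 0.00139, the lowest value that occurs in each list, shared there by 274, 266 and 359 regions. Among protein-coding genes ordered by their strongest region, ego-1 stood at place 20 in the pooled list, 31 in replicate 1 and 7 in replicate 2. On its chromosome the peak ranked 5 of 107 IDR peaks.

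The summit lay 371 bp upstream of the annotated 5′ end of ego-1 in the pooled list, 394 bp in replicate 1 and 365 bp in replicate 2, a range of 29 bp. Of the 225 genes whose strongest IDR summit lay upstream, the median distance was 302 bp, and 56.4% had a summit no farther away than that of ego-1. The interval between ego-1 and the next gene upstream, F26A3.4, is 639 bp long. F26A3.4 is transcribed in the same direction, and the summit lay 269 bp from its 3′ end. The interval also holds the piRNA gene 21ur-14981, a unit of 21 bp encoding a germ line small RNA, which lies 115 bp upstream of ego-1 with its 5′ end 235 bp from the summit. Position alone does not assign the peak to one of these genes.

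A second pooled region overlapped this peak by 125 bp, with its summit 571 bp upstream of ego-1 and 69 bp from the 3′ end of F26A3.4. Its signal value was 126 in the pooled list (rank 1196) and 70.6 in replicate 2 (rank 133). Replicate 1 listed no summit within 100 bp of it. The peak was 207 bp wide in the pooled list and 191 bp wide in replicate 1, where 436 bp is the usual width, and had the usual 444 bp in replicate 2. An unusual width occurred in 33 of the 18286 pooled regions and in 28 of the 575 IDR peaks, so it was more frequent among the strong peaks.

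Inside ego-1 the candidate regions were far weaker. A region with its summit in a coding exon, 3751 bp past the 5′ end, had signal values of 90.2 pooled (rank 4200), 55.1 in replicate 1 (rank 7970) and 26 in replicate 2 (rank 9367). A region at the 3′ UTR had values of 66.2 (rank 11724), 42.5 (rank 17128) and 25.3 (rank 10295). A further region in the 3′ UTR was listed by replicate 2 alone, at rank 25273 of 25275. The upstream peak thus stood apart from the gene body in each list.

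**Figure D1:**
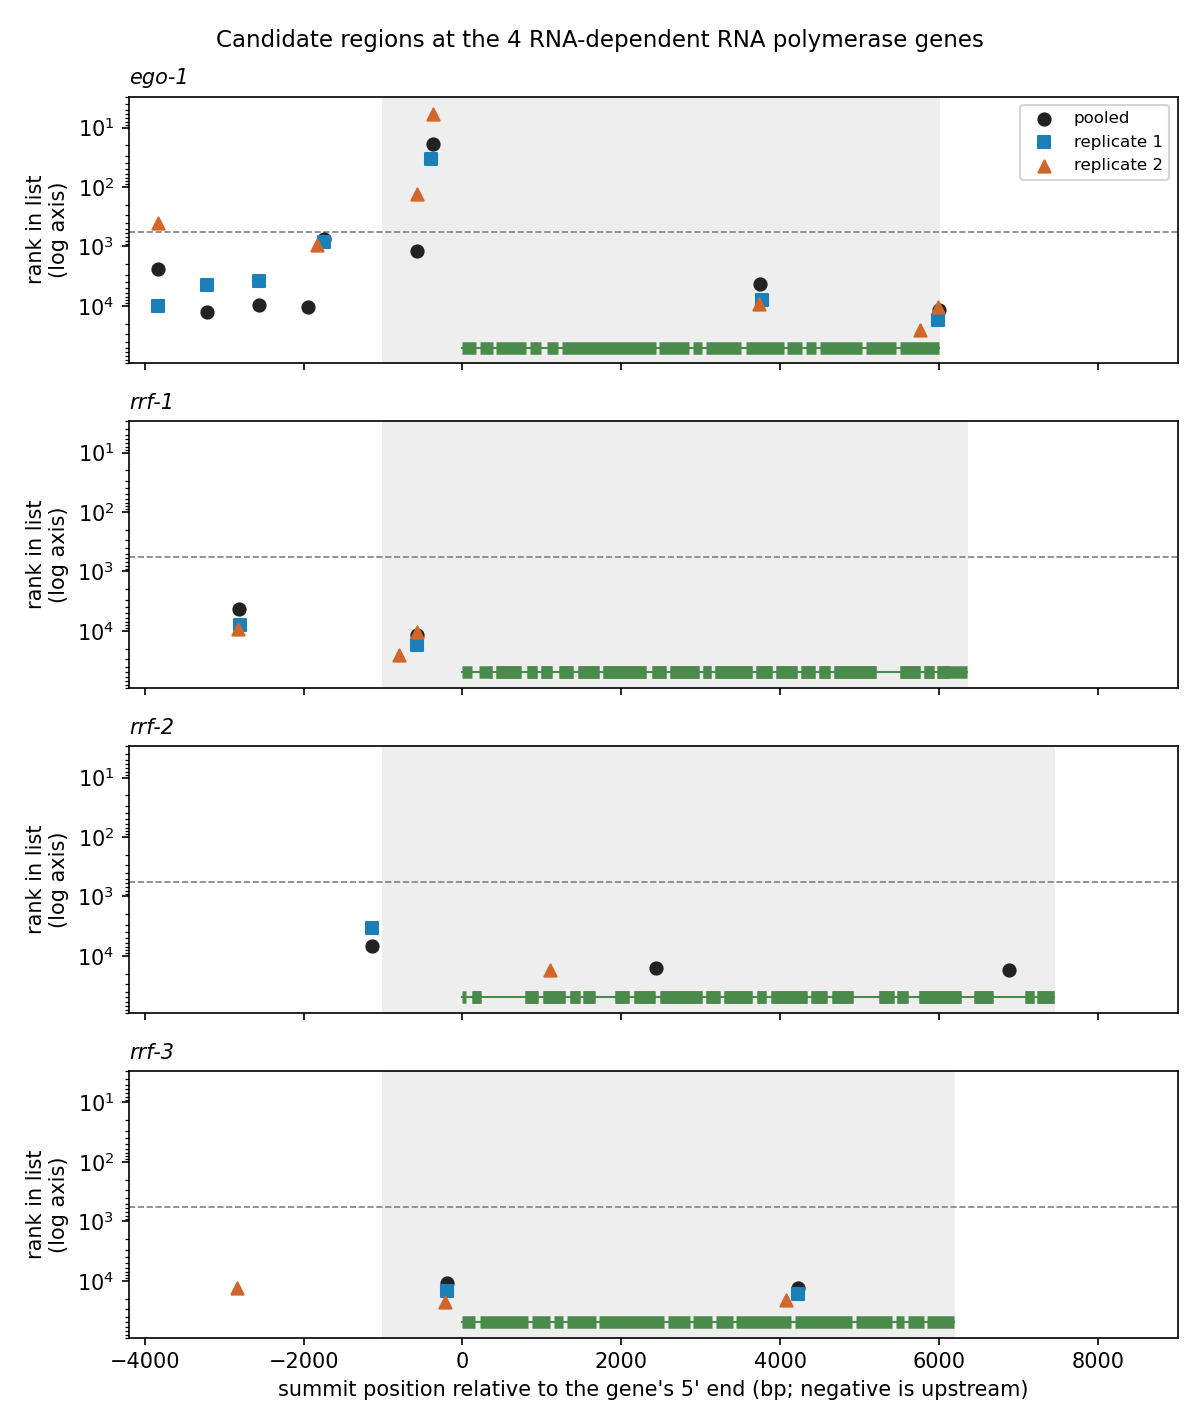
Candidate regions at each gene, plotted by summit position relative to the gene's 5′ end (bp) and by rank in the list (log axis, stronger regions higher). Circles are the pooled list, squares replicate 1 and triangles replicate 2. The shaded span is the gene with 1000 bp upstream, green bars are exons, and the dashed line is rank 575, the length of the IDR list. The symbols above that line within a shaded span are at ego-1, between 365 and 573 bp upstream.

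The neighbour rrf-1 held no IDR summit and no summit inside its own body in any list. Its window reached the end of ego-1, and its strongest region was the one at the 3′ UTR of ego-1, with its summit 568 bp upstream of rrf-1. That region had a signal value of 66.2 pooled, 42.5 in replicate 1 and 25.3 in replicate 2, or 0.921, 0.802 and 1.07 times the median of its list. It lay within 4 bp in the 3 lists but near the middle or bottom of each, at 64.1%, 94.5% and 40.7% of the way down. With 500 bp upstream in place of 1000, rrf-1 had no pooled region. The peak of ego-1 lay 6932 bp from the 5′ end of rrf-1. On the other side, the cap-binding protein gene ncbp-2, on the same strand, had no region in any list.

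The coding sequences of ego-1 and rrf-1 share a run of 115 identical bases, from 7652956 to 7653070 in ego-1, which could let short reads of either gene align to the other. Of the 36-base words of ego-1, 98.7% occurred once in the nuclear genome, and the same share held for rrf-1. The shared run lay 369 bp from the nearest pooled summit of ego-1. Each 36-base word of the upstream peak occurred once, as did those of the other pooled regions at the 4 genes. The length of the reads was not stated in the labels.

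At rrf-2 the strongest pooled region was the weakest of the family, and no region in the window recurred between lists. The pooled list had a region in an intron with a signal value of 59 (rank 16274) and another in an intron with 58 (rank 16971), the first from 12103463 to 12103898. Neither had a summit within 100 bp in either replicate. Replicate 1 listed no region in the window. Replicate 2 listed a region in a coding exon with a signal value of 21.1 (rank 17232), or 0.893 times the median of its list. Just outside the window, 1133 bp upstream of rrf-2 and in a coding exon of M01G12.14, a pooled region had a signal value of 78.4 (rank 6909) and a replicate 1 region 69.4 (rank 3452). No list had a summit in the window of the neighbour on the other side, Y47H10A.5. At the other genes, the nearest pooled summits outside the limit lay 1737 bp upstream of ego-1 (signal value 144, rank 734) and 2810 bp upstream of rrf-1 (90.2, rank 4200), against 571 and 568 bp just inside it.

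**Figure D2:**
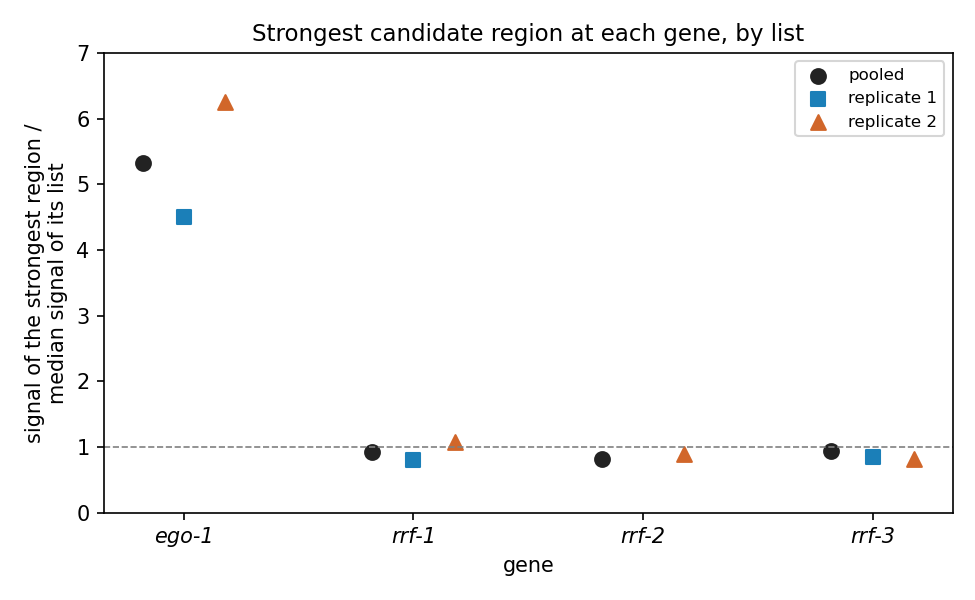
Signal value of the strongest region at each gene divided by the median signal value of its list (vertical axis, from 0), for the pooled list (circles), replicate 1 (squares) and replicate 2 (triangles); the dashed line is the median. The 3 points of ego-1 lie between 4.5 and 6.25, and the points of the other genes between 0.802 and 1.07; rrf-2 has no point for replicate 1.

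At rrf-3 the strongest pooled region lay in the interval shared with emb-27, a subunit of the anaphase-promoting complex that is transcribed in the opposite direction. Its summit was 196 bp upstream of rrf-3, and lay nearer to the 5′ end of emb-27. The region was also the only pooled one in the window of emb-27, and position alone does not assign it to either gene. Its signal value was 67.5 in the pooled list (rank 11048), 45.2 in replicate 1 (rank 14544) and 18.8 in replicate 2 (rank 22490). The summits lay within 24 bp in the 3 lists, all at ranks in the weaker part of the list. The q-values were 0.846 in the pooled list, 0.913 in replicate 1 and 0.928 in replicate 2. A second region, in a coding exon 4229 bp past the 5′ end, had signal values of 64 pooled (rank 12992) and 42.8 in replicate 1 (rank 16734). The nearest summit in replicate 2 was at 4074 bp, with a signal value of 19.3 (rank 21364). No pooled summit lay within 3000 bp beyond the upstream limit of rrf-3.

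The interval between emb-27 and rrf-3 is shown as the upstream sequence of rrf-3 and the place of its strongest pooled region; the sequences at the other members are not reported here. It spans 294 bases of chromosome II, from 8162171 to 8162464 in WBcel235, read 5′ to 3′ on the plus strand towards rrf-3. Capitals mark the 25 bases between the outermost summits of the 3 lists, from 8162245 to 8162269. Its G+C content was 31%.
emb-27 to rrf-3: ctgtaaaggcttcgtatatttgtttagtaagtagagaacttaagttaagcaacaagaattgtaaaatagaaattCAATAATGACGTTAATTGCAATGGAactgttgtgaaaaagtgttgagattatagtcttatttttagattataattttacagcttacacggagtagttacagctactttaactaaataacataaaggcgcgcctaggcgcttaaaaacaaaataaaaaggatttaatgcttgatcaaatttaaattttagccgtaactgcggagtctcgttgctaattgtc

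The peaks most like that of ego-1, by the distance between log10 ranks in the pooled and both replicate lists among 478 genes with an IDR summit and a summit in each replicate, were at kel-3 with cdk-5, nspc-17, rpi-2 and mom-1. The gene kel-3 encodes a kelch-family protein, cdk-5 a cyclin-dependent kinase and mom-1 a protein needed for Wnt secretion. The pair kel-3 and cdk-5 share a peak that ranked 18, 27 and 9 in the pooled list, replicate 1 and replicate 2, with a signal value of 389. Its summit lay 49 bp upstream of kel-3 and 1571 bp past the 5′ end of cdk-5, inside that gene, and ant-1.1 was within 250 bp of it. The summit at nspc-17 lay 711 bp upstream, that at rpi-2 29 bp past the 5′ end and that at mom-1 3447 bp past it. No gene lay within 250 bp of the summit at nspc-17, and K08D12.3 was also within 250 bp of that at rpi-2. The peak at nspc-17 ranked 17, 19 and 14, that at rpi-2 34, 61 and 13, and that at mom-1 14, 16 and 16. Their widths were 121, 210, 436 and 155 bp, so 3 of these 4 peaks, like the pooled ego-1 peak of 207 bp, had a width other than 436 bp. The 4 peaks were picked by their high ranks, and unusual widths were more frequent among strong peaks.

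The 101 bases around these summits are shown to set the letters of peaks ranked like that of ego-1 beside those at rrf-3. The region at rrf-3 was far weaker, at pooled rank 11048. The windows are given on the plus strand of WBcel235, with the 11 bases centred on the summit in capitals. They lie at chrIII:13464721-13464821 (kel-3), chrX:14525842-14525942 (nspc-17), chrIV:1711241-1711341 (rpi-2) and chrX:6296509-6296609 (mom-1).
kel-3: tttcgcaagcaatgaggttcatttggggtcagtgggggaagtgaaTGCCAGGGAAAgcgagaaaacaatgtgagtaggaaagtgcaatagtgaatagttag
nspc-17: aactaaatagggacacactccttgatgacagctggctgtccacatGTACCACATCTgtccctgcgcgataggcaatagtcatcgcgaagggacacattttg
rpi-2: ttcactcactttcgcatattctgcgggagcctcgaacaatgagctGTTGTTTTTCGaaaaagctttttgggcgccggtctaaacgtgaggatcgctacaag
mom-1: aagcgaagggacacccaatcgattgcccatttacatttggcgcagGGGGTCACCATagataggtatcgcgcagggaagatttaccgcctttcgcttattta

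The window of the same length at the ego-1 summit had 36.6% G+C, below the 44.6% to 49.5% of these 4 windows and below the mean of 45.6% ± 9.58 (SD, 575 windows) over the IDR list. The mean over all pooled summits was 41.6% ± 9.27 (SD, 18286 windows). The windows at the other pooled summits of the family ran from 24.8% upstream of rrf-3 to 47.5% in rrf-2 and rrf-3. The word ACGCAG was picked in an earlier search of these same IDR peaks for words frequent at summits, so its share there is no independent result. The word, searched with its reverse complement CTGCGT, was in none of the windows at the 4 genes or at the 4 peaks above, and in 11.3% of IDR windows and 3.94% of pooled windows. No match says only that these letters are not in the window.

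Candidate regions were more frequent around ego-1, and less frequent around rrf-2, than over the genome. Within 20000 bp on either side of ego-1 the pooled list had 16 regions, or 3.48 per 10000 bp, against 1.82 over the nuclear genome. The count was 15 in replicate 1 (3.26, genome 1.81) and 17 in replicate 2 (3.7, genome 2.52). Around rrf-2 the counts were 3, 2 and 4, or 0.632, 0.422 and 0.843 per 10000 bp, below the genome in each list. Around rrf-3 they were 10, 11 and 12, or 2.17, 2.38 and 2.6. The span around rrf-1 largely repeats that of ego-1. At F26A3.4, upstream of ego-1, the strongest region had a signal value of 144 pooled (rank 734), 102 in replicate 1 (rank 829) and 45.4 in replicate 2 (rank 937), without an IDR summit. A region 3828 bp upstream of ego-1 ranked 2378 in the pooled list, 9855 in replicate 1 and 404 in replicate 2.

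**Figure D3:**
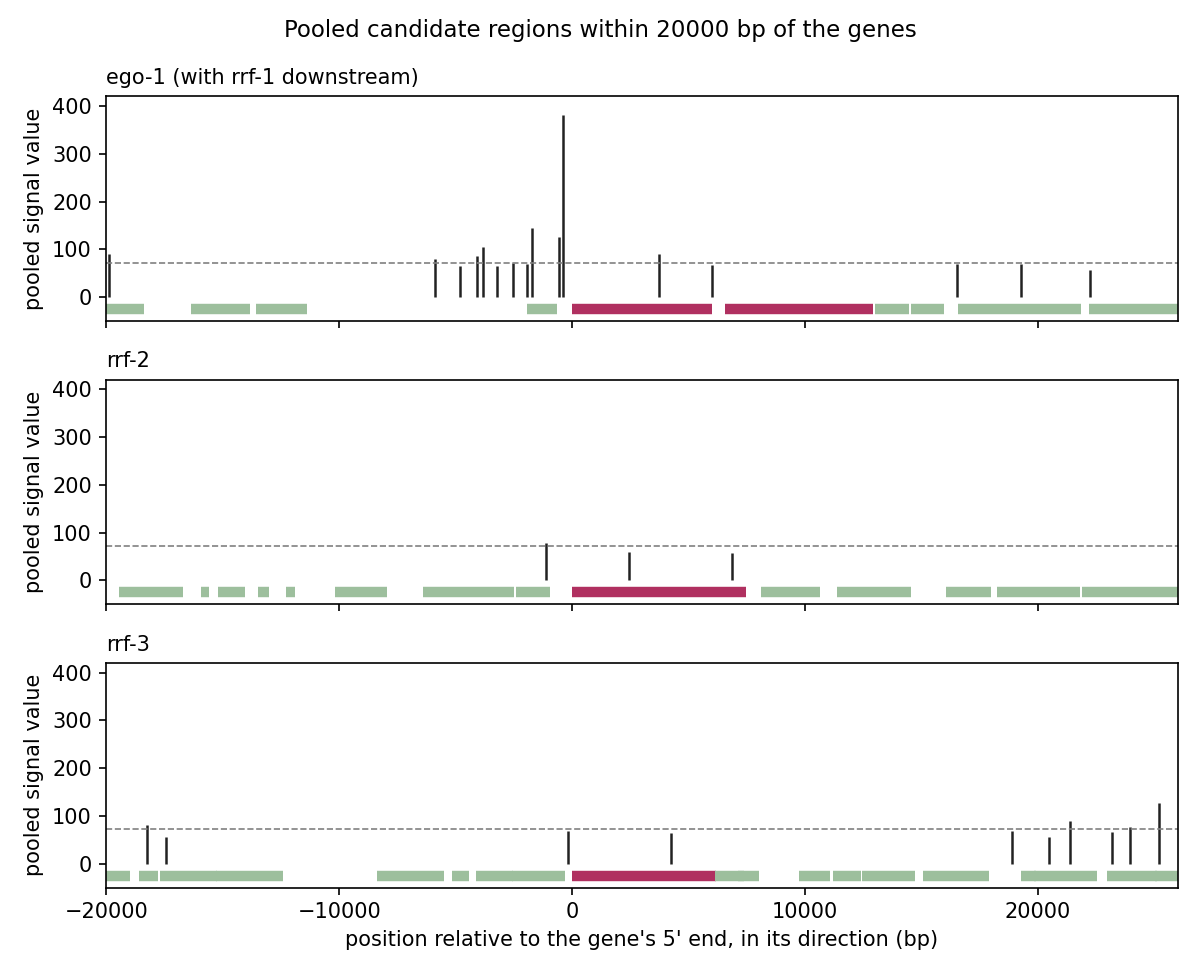
Pooled signal value (vertical axis) of each candidate region within 20000 bp of ego-1, rrf-2 and rrf-3, by summit position relative to the gene's 5′ end (bp, in the direction of the gene). Bars below 0 are protein-coding genes, with family members in red (rrf-1 is the second red bar of the top panel), and the dashed line is the median of the pooled list, 71.9. The peak of ego-1 reaches 382, the next highest region of its panel 144, and the panel of rrf-2 has 3 regions.

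Genes acting with the polymerases in small RNA pathways had IDR summits at 6 of 80 protein-coding genes in 6 lists, or 7.5%, against 2.4% of all protein-coding genes. These gene lists were chosen with earlier results of these data known, so the count is a description with no test. The count was 12 of 80 where any overlap of a peak with the window counted, with a share of 3.28% over all protein-coding genes. It was 3 of 80 among the stronger 288 IDR peaks, with a share of 1.34% over all genes. A pooled candidate summit was present at 53, or 66.2%, against 45.9%. Their median window of 4533 bp was longer than that of all genes, and the part of length in these shares was not tested. Among the genes with a pooled summit, the median rank of the strongest region was 5392 in the 6 lists, against 6952 over all 9163 protein-coding genes with one. The part of window length in this difference in rank was not tested either. The 6 genes ranked below ego-1, the best at 117.

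Argonautes, which carry the small RNAs, had an IDR summit at 1 of 20, against 2.4% of all protein-coding genes. The gene was hrde-1, the nuclear Argonaute of inherited silencing in the germ line. Its signal value was 237, with ranks of 117, 149 and 387 in the pooled list, replicate 1 and replicate 2. The Piwi gene prg-1 (signal value 145, rank 732) and wago-4 (135, rank 967) had pooled q-values under 0.05 without an IDR summit. The gene csr-1, whose Argonaute takes up EGO-1 products, had its strongest pooled region at rank 6047 (81.6).

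Dicer, helicase and polymerase partner genes had IDR summits at 2 of 13, against 2.4% of all protein-coding genes. At eri-5, which encodes a Tudor-domain partner of RRF-3, the signal value was 183, with ranks of 305, 630 and 111 and the summit 333 bp upstream. At eri-1, an exonuclease gene, it was 163, with ranks of 480, 272 and 1440 and the summit 94 bp past the 5′ end. Of the other genes named eri in the list, eri-3 had rank 1019 (132), eri-6 had rank 4072 (90.9), and eri-9 had no pooled region and a replicate 1 region at rank 17380. The Dicer gene dcr-1 had rank 14968 (60.8), and drh-3, a helicase gene acting with EGO-1 and RRF-1, had no pooled region and a replicate 2 region at rank 14262.

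The other lists had 1 gene each with an IDR summit or none, against 2.4% of all protein-coding genes. Nothing is read from counts of this size in any of the 6 lists. Among 10 Mutator complex genes, which act in the amplification of small RNAs, mut-16 had an IDR summit (signal value 196, ranks 243, 413 and 129), and rde-2 (rank 3953) and rde-8 (rank 5354) followed. Among 11 nuclear RNA interference and RNA transport genes it was nrde-2 (179, ranks 328, 320 and 553), followed by rsd-6 (rank 2711) and rsd-2 (rank 4130). Among 15 germ granule genes it was mip-2 (209, ranks 184, 189 and 416), followed by glh-1 (rank 811) and pgl-3 (rank 3516). Of 11 piRNA biogenesis genes, 0 had an IDR summit, and henn-1 (rank 3021), pid-2 (rank 8153) and prde-1 (rank 9154) led the 4 with a pooled region.

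The summits of hrde-1, mut-16 and mip-2 lay inside the genes, 47, 54 and 47 bp from the 3′ end, unlike that of ego-1. Over all 479 protein-coding genes with an IDR summit, 23, or 4.8%, had their strongest one within 100 bp of the 3′ end. None of these 3 summits lay within 1000 bp upstream of another protein-coding gene or inside one. The positions at 3′ ends were singled out after their values were seen.

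**Figure D4:**
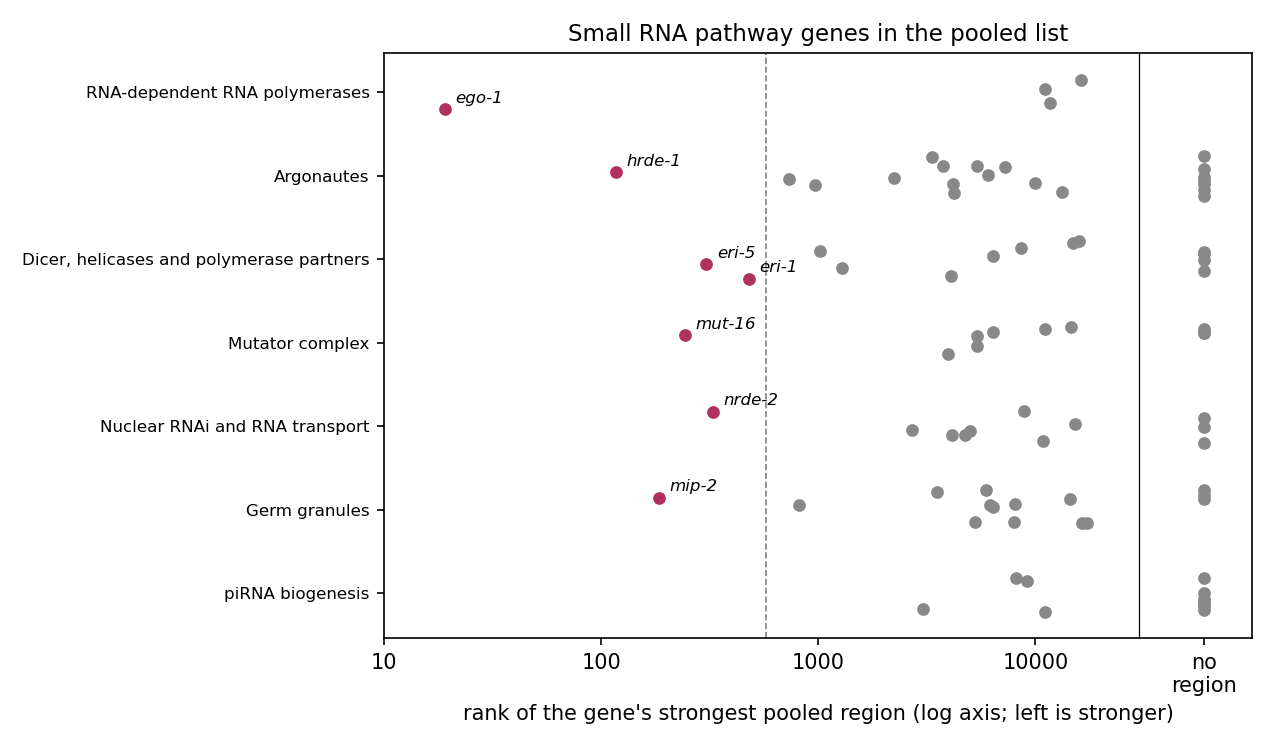
Rank of the strongest pooled region of each gene (log axis, stronger to the left) for the polymerases and the 6 pathway lists, with genes without a pooled region at the right; vertical spread within a list only separates points. Red points are ranks up to 575 (dashed line), the length of the IDR list. The point of ego-1 is at 19, hrde-1 at 117, and rrf-1, rrf-2 and rrf-3 lie between 11048 and 16274.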

How the data were processed

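The deposited lists are in narrowPeak format, per the deposited lists of files, and were made by the authors from 2 replicates with a control library; control data were not analysed here. For aligner, peak caller, versions and IDR threshold, the sources used here give nothing. The authors' signal value is the peak caller's own, and the −log10 of a q-value is given beside it in the deposited lists. Lists in ce10 were not used, since genes were placed on ce11 (WBcel235) and no coordinate was converted. Summits were the start plus the offset, written from 1, and regions were ranked by signal value. Genes came from Ensembl release 115; names of the pathway lists were matched by symbol, for 80 of 85, and the 5 others were not analysed. Proteins were translated from the annotation and aligned with BLOSUM62 (gap penalties -11 and -1). Sequences were read from the RefSeq copy of WBcel235.

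The members and gene lists were chosen with earlier results of these data known, and no test was made. Named genes were the members, their neighbours, pathway genes with an IDR summit, the 3 strongest of each list, and the 5 genes nearest to ego-1 in rank; csr-1, dcr-1, drh-3, eri-6 and eri-9 were added after their values were seen. The window count was tested on simulated data. Python 3.11.15, numpy 2.4.6, pandas 2.3.3, Biopython 1.88 and matplotlib 3.10.9 were used.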

Additional observations from a re-analysis of the deposited data

How the results depend on the processing

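The rank of the ego-1 peak was 19 with 500 or 2000 bp upstream and with any overlap of the region. With a replicate left out, the list of the other replicate stood in for the pooled list, so these ranks are the replicates' own, in lists of different lengths, and show no change by themselves. They were 6 to 34 at ego-1, 10295 to 17128 at rrf-1 and 14544 to 21364 at rrf-3. At rrf-2 the rank was 17232 without replicate 1, which is 68.2% of the way down that list against 89% in the pooled list, and there was no region without replicate 2. With 500 bp upstream rrf-1 had no region. With 2000 bp upstream or any overlap, rrf-2 had rank 6909, from the region just outside its window. Members with an IDR summit numbered 1 with 500 or 2000 bp upstream, with any overlap and in the stronger 288 IDR peaks. The shares of all protein-coding genes under these settings were 2.02%, 3.03%, 3.28% and 1.34%, in that order. The 575 strongest regions of a single replicate, used in place of the IDR list where a replicate was left out, and pooled regions with a q-value under 0.05 also gave 1 member. Members with a candidate summit fell from 4 to 1 at a q-value under 0.05, and were 3 to 4 in single replicates. Pathway genes with an IDR summit were 12 with any overlap and 3 in the stronger 288 peaks; 5 to 6 had a summit among the 575 strongest regions of a replicate. The share of all protein-coding genes was 1.34% in the 288 peaks, 4.15% at a q-value under 0.05, 3.68% among genes as long as the members, and 2.45% to 2.51% for the 575 strongest regions of a replicate. The cause of these differences was not tested. No paired analysis was possible because the study has 1 group. Read depth is unknown, so no counting error could be given.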
